A study of Mus musculus with 4 samples.

Results

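The EGR, NR4A, DUSP and IER early genes are a set of 10 mouse genes: Egr1, Egr2, Egr3, Nr4a1, Nr4a2, Dusp1, Dusp2, Ier2, Ier3 and Ier5. They were taken by symbol, with every array probe whose RefSeq transcript accession belongs to 1 of them. This gave 12 of the 39429 probes on the array. Of the 10 genes, 9 were among the 20636 features tested and Egr3 was not.

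The samples were splenic B cells depleted of cells carrying CD43, a surface protein of T cells and of plasma cells, and then activated in culture. Aff3-/- cells, which lack both intact copies of Aff3, were compared with Aff3+/- cells, which carry 1 mutant allele themselves. The culture lasted 3 days and contained 10 ug/mL of LPS, which is bacterial and signals through TLR4, and 10 ng/mL of the cytokine IL-4. Each genotype had 2 Cy3-labelled samples, numbered 1 and 2 in the labels, on 1-colour Agilent arrays of 1 slide. No group of intact wild-type cells was analysed, and neither the age of the mice nor the construction of the allele is given in the labels. Whether the samples of a genotype stem from different mice is not stated in the labels, and p-values here reflect only how these 4 samples vary. Aff3 belongs to the AF4/FMR2 proteins of the nucleus, which act with transcription elongation complexes, and the comparison asked how its loss alters transcripts of activated B cells. No probe matched an Aff3 accession of the naming table, so the genotypes were taken from the labels with no check on the deleted gene.

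Early genes are transcribed within minutes of a stimulus without new protein synthesis, and their messages are short-lived. In B cells they are induced through ERK and other MAP kinases, calcium and NF-kB after signals from the antigen receptor, TLR4 or CD40. EGR proteins are zinc finger transcription factors and NR4A proteins are orphan nuclear receptors. DUSP1 and DUSP2 remove phosphate from MAP kinases, and IER is the name given to several immediate early response genes. Serum response factor binds CArG boxes and CREB binds cAMP response elements (CRE) in promoters of this kind.

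A promoter window of 300 bases, 250 before and 50 after an annotated start, was found for 7 of the 10 genes in RefSeq's GRCm38.p6 tables. The windows of Egr2, Nr4a1, Nr4a2 and Dusp1 are shown because the Egr2 signal and the NR4A signals went opposite ways between arrays, and because Dusp1 held the full CRE. Capitals mark CArG boxes, CREs (TGACGTCA), CRE cores (TGACG, which also lie within a full CRE) and EGR sites (GCGNGGGCG), each searched on both strands.
Egr2, chr10:67537619-67537918, plus strand: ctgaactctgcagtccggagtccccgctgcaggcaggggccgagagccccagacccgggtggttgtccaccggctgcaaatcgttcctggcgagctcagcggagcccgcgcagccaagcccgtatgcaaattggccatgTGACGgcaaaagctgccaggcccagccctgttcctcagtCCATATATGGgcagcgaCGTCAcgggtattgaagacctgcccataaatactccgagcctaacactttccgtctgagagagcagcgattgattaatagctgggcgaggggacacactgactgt
Nr4a1, chr15:101266596-101266895, plus strand: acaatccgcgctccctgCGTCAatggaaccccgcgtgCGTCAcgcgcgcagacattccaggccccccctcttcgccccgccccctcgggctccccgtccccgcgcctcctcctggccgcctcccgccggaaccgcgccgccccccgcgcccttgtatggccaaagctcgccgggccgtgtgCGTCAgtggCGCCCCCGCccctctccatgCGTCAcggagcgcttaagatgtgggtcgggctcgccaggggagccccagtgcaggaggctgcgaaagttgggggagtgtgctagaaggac
Nr4a2, chr2:57123954-57124253, minus strand: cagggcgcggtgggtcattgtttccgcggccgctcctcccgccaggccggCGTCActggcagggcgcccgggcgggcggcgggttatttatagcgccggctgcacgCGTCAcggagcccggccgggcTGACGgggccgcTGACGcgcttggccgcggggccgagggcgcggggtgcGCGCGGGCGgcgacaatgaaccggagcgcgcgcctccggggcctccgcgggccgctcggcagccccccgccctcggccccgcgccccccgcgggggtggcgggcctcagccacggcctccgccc
Dusp1, chr17:26508423-26508722, minus strand: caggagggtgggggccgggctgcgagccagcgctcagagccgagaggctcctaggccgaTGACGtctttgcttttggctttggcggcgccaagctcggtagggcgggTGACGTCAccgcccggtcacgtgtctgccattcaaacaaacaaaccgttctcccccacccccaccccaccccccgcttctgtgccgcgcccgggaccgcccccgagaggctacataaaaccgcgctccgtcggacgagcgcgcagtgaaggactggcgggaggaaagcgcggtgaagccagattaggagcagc

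Counted from the start base as 0, the printed Egr2 window held a CArG box with its first base at -72 and CRE cores at -111 and -55. CArG boxes were found in 4 of 5 overlapping or neighbouring Egr2 windows, and the overlapping ones share the same box. No other gene among the 7 held one, where 1.63% of all 32851 windows did. Egr1, Egr3 and Ier2 had no window and were not searched. The Nr4a1 window held 4 CRE cores, with first bases at -233, -213, -69 and -40, and an EGR site at -60. The Nr4a2 window likewise held 4 cores, at -200, -144, -123 and -111, with an EGR site at -74. The full CRE of Dusp1 began at -143, and 1.79% of all windows held one. Cores lay in 7 of the 11 windows of the 7 genes and EGR sites in 3 of 11, against 20.8% and 5.55% of all windows, and the Egr2 windows with cores overlap each other. The windows of Ier3 and Ier5 held none of these motifs. The matches describe letters in a window and were not set against any measure of binding. Whether they go with the order of the arrays was not tested.

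Signals were expressed on the log2 scale against the 75th percentile of the array's gene spots, and intensities are in Feature Extraction units. On that scale a probe's level cannot be set against another probe's, so only the arrays are compared. An array had 24942 to 25862 of its 39429 probes well above background and 0 saturated gene spots. All 6 B cell markers were well above background on every array. Their summed intensity was 214 to 261 times the 75th percentile in Aff3-/- cells and 228 to 251 times in Aff3+/- cells. T cell markers were above background on every array for 5 of 8 genes, and Cd3g on none. Their sum was 8.63 to 9.17 in Aff3-/- cells, below the 9.24 to 9.69 of Aff3+/- cells. Plasma cell markers, 4 of 4 above background, summed to 46.6 to 50.4 in Aff3-/- cells, above the 40.2 to 45.8 of Aff3+/- cells. Macrophage and monocyte markers summed to 7.17 to 8.47 in Aff3-/- cells and 8.09 to 8.78 in Aff3+/- cells, with 4 of 5 probed genes above background on every array and Lyz2 on none. Dendritic cell markers summed to 89.5 to 94 in Aff3-/- cells and 93.3 to 103 in Aff3+/- cells. Sums of different markers do not give the share of a cell type. Of their 5 genes 3 were above background on every array, and Itgax and Xcr1 on none. The part of these other cells in the values below was not tested. In such bulk samples, fewer cells of a type and less RNA per cell cannot be told apart.

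For 7 of the 9 tested genes, the 2 arrays of each genotype lay farther apart than the genotype means. This count was not taken over all features, so it does not set these genes apart. Of the 9 tested genes, 8 had a higher mean in Aff3-/- cells, a direction that 45.7% of all features shared, and the median difference was +0.31, against -0.01 over all features. In Aff3-/- cells the 2 arrays lay a median of 0.83 apart for these genes, and in Aff3+/- cells 0.82, against 0.20 and 0.16 over all features. None of the 9 passed limma's test at an adjusted p of 0.05, and neither did any of the 20636 features (0%). At an unadjusted p under 0.05 the test took 421 features (2.04%) and 0 of the 9 genes. The median difference was smaller when any 1 array was left out, which also makes the numbers 1 and 2 unequal between genotypes. It was +0.09 when Aff3-/- replicate 1 was left out and +0.15 for Aff3-/- replicate 2. Leaving out Aff3+/- replicate 1 gave +0.19, and Aff3+/- replicate 2 gave +0.14.

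**Figure D1:**
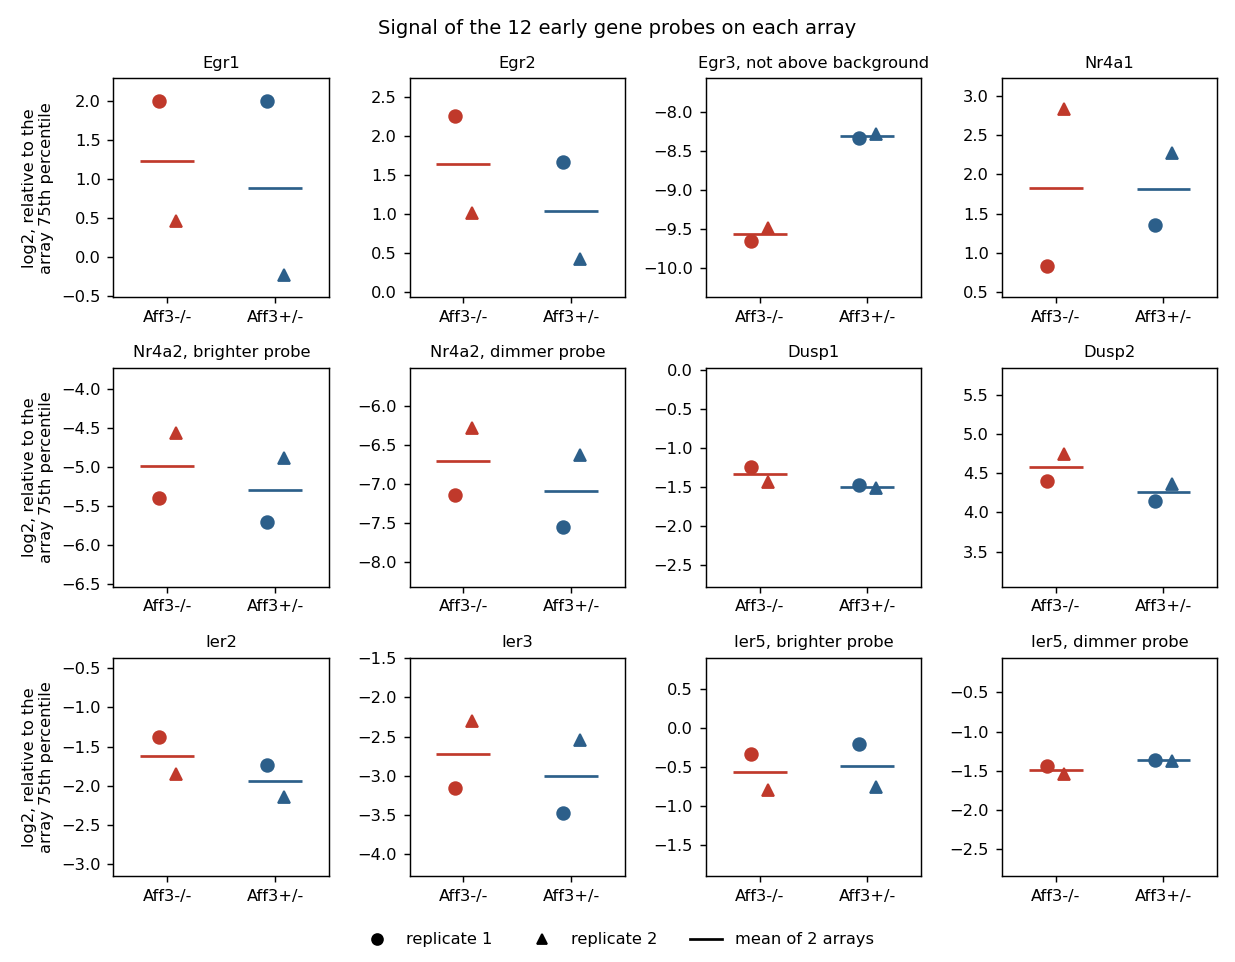
Signal of each of the 12 probes on each array (y axis, log2 against that array's 75th percentile, with the same span in every panel), Aff3-/- arrays at left in red and Aff3+/- arrays at right in blue, with circles for replicate 1, triangles for replicate 2 and bars for the mean of 2 arrays. For Egr1 the symbols spread from 2.00 to -0.23, and for Nr4a1 from 0.82 to 2.83, while for Dusp1 all lie between -1.52 and -1.24.

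Egr1, an ERK-induced activator of growth genes, had intensities of 5284 and 1783 on the Aff3-/- arrays 1 and 2, against 5083 and 1154 on the Aff3+/- arrays 1 and 2. Both arrays numbered 1 were high, with nearly the same value, and both numbered 2 were low, so the genotypes overlapped. Within Aff3-/- cells the 2 arrays differed 2.90-fold, and within Aff3+/- cells 4.67-fold, whereas the genotype means differed 1.28-fold. The log2 difference was +0.35 with a 95% interval of -2.02 to +2.73 (limma, adjusted p = 1). Its sign turned without Aff3-/- replicate 1 (-0.41) and without Aff3+/- replicate 2 (-0.76).

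Egr2, a zinc finger factor of lymphocyte activation, had intensities of 6270 and 2604 on the Aff3-/- arrays 1 and 2, against 4038 and 1808 on the Aff3+/- arrays. As with Egr1 the arrays numbered 1 were the bright ones. Here the Aff3-/- array was also the brighter of each same-numbered pair, although the genotypes still overlapped. The log2 means were 1.63 ± 0.87 in Aff3-/- cells and 1.04 ± 0.88 in Aff3+/- cells (SD, n = 2 each). The difference of +0.59, the largest of the 9, had an interval of -0.97 to +2.15 (limma, adjusted p = 1). It was close to 0 without Aff3-/- replicate 1 (-0.03) and without Aff3+/- replicate 2 (-0.03), and it was +1.21 without either of the other 2 arrays.

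Egr3, which acts with Egr2 in restraining lymphocyte responses, was not well above background on any of the 4 arrays. Its intensities were 1.63 and 1.795 on the Aff3-/- arrays and 3.94 and 4.31 on the Aff3+/- arrays, and no fold was taken. Its paralogue Egr4 was also not well above background on any array. The corepressors that bind EGR proteins were both measured. Nab1 had 1.48 and 1.52 on the Aff3-/- arrays against 1.37 and 1.43 on the Aff3+/- arrays (log2), a difference of +0.10 ± 0.11 (SE). Nab2, itself an EGR target, had 0.82 and 1.90 on the Aff3-/- arrays 1 and 2 against 0.80 and 1.57 on the Aff3+/- arrays. It was thus high on the arrays numbered 2, where Egr1 and Egr2 were low, and a second, dimmer Nab2 probe had the same order by number.

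Nr4a1, an orphan receptor widely used as a marker of antigen receptor signalling, had intensities of 2332 and 9181 on the Aff3-/- arrays 1 and 2, against 3252 and 6511 on the Aff3+/- arrays. The arrays numbered 2 were bright in both genotypes, the opposite of Egr1 and Egr2. The 2 Aff3-/- arrays were the lowest and the highest of the 4, 4.03-fold apart, and the Aff3+/- arrays were 1.89-fold apart and lay between them. The means were 1.83 ± 1.42 in Aff3-/- cells and 1.81 ± 0.65 in Aff3+/- cells (log2, SD, n = 2 each). The difference of +0.02 had an interval of -1.93 to +1.97 (limma, adjusted p = 1), a span that covers large changes in either direction. Its sign depended on single arrays. It was +1.02 when Aff3-/- replicate 1 was left out, -0.99 for Aff3-/- replicate 2 and -0.44 for Aff3+/- replicate 1.

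Nr4a2, the second receptor of the family, had a dim but measurable signal. Its brighter probe had intensities of 31.1 and 54.3 on the Aff3-/- arrays 1 and 2, against 24.5 and 45.8 on the Aff3+/- arrays, and the arrays numbered 2 were again the bright ones. The dimmer probe gave 9.35 and 16.5 on the Aff3-/- arrays against 6.78 and 13.7 on the Aff3+/- arrays, where array 1 was not well above background. The 2 probes had the same order of arrays, with differences of +0.31 ± 0.40 and +0.38 ± 0.43 (log2, SE). Within each number the Aff3-/- array was the higher on both probes. The brighter probe's difference turned to -0.11 without Aff3-/- replicate 2 and to -0.10 without Aff3+/- replicate 1. Nr4a3, the other receptor of the family, was not well above background on any array.

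**Figure D2:**
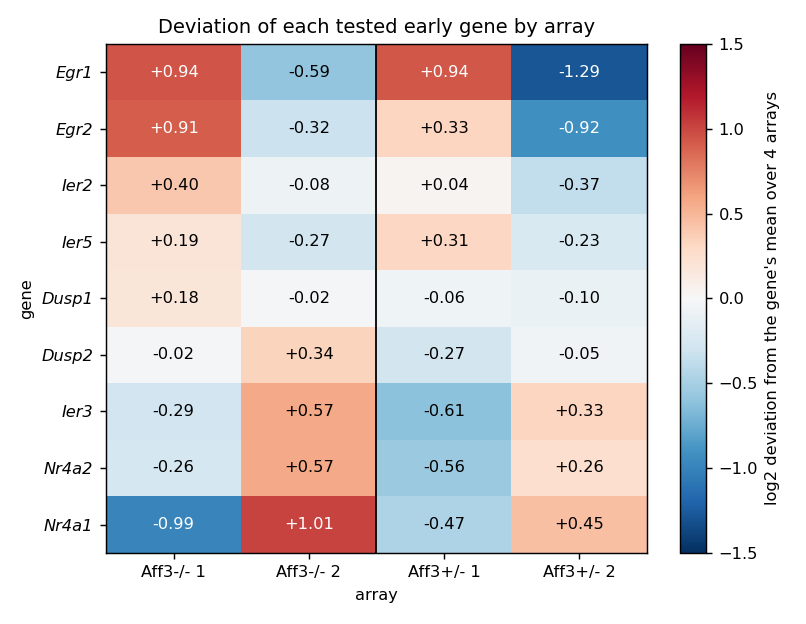
Log2 deviation of each of the 9 tested genes (rows) from its own mean over the 4 arrays (columns, Aff3-/- at left), red for higher and blue for lower. Egr1 and Egr2 stand at +0.94 and +0.91 on Aff3-/- array 1 and at -1.29 and -0.92 on Aff3+/- array 2, where Nr4a1, Nr4a2 and Ier3 stand at +0.45, +0.26 and +0.33.

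By the residual SD the DUSP genes were the steadiest of the 9. Dusp1, a nuclear phosphatase that switches off p38, JNK and ERK, had intensities of 557 and 476 on the Aff3-/- arrays 1 and 2, against 457 and 472 on the Aff3+/- arrays. Both Aff3-/- values were above both Aff3+/- values. The difference was +0.16 ± 0.13 (log2, SE), a fold of 1.12 (limma, adjusted p = 1). Dusp2, also called PAC-1, a phosphatase of activated blood cells, had 27790 and 34700 on the Aff3-/- arrays against 22540 and 27880 on the Aff3+/- arrays. On the log2 scale relative to the 75th percentile these were 4.40 and 4.75 against 4.15 and 4.37, so that once the arrays were scaled the lower Aff3-/- value lay just above the higher Aff3+/- value. The difference was +0.32 ± 0.18 with an interval of -0.15 to +0.78 (limma, adjusted p = 1). These were the 2 genes of the 9 whose genotypes did not overlap with Aff3-/- above, where 8.44% of all features had no overlap in that direction and 19.6% in either, and no gene of the 9 had the opposite order. Where genotypes do not overlap, leaving out 1 array cannot turn the sign of the difference. Leaving out each array in turn gave +0.06 to +0.26 for Dusp1 and +0.14 to +0.50 for Dusp2.

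Among the IER genes, Ier2, which encodes a nuclear protein, had intensities of 507 and 356 on the Aff3-/- arrays 1 and 2 against 382 and 305 on the Aff3+/- arrays. The arrays numbered 1 were the brighter in each genotype, and 1 Aff3+/- array exceeded 1 Aff3-/- array. The difference was +0.32 ± 0.24 (log2, SE), and it stayed positive without any 1 array, between +0.09 and +0.56. Ier3, also called IEX-1, which modulates cell death and ERK signalling, had 148 and 261 on the Aff3-/- arrays 1 and 2 against 114 and 232 on the Aff3+/- arrays. Its arrays numbered 2 were the brighter, as for Nr4a1 and Nr4a2. Within each number the Aff3-/- array was the higher. The Ier3 difference of +0.28 ± 0.43 turned to -0.14 without Aff3-/- replicate 2 and to -0.19 without Aff3+/- replicate 1.

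Ier5, a p53- and stress-induced partner of the heat shock factor HSF1, was the only tested gene of the set with a lower mean in Aff3-/- cells. Its brighter probe had intensities of 1050 and 744 on the Aff3-/- arrays 1 and 2 against 1103 and 802 on the Aff3+/- arrays (log2 difference -0.08 ± 0.26, SE). Its dimmer probe had 484 and 440.5 against 496 and 521. The probes did not have the same order of arrays. The brighter one overlapped between genotypes and was higher on the arrays numbered 1, whereas the dimmer one was lower on both Aff3-/- arrays, by -0.13 ± 0.115 in the fit over 25115 probes (limma, adjusted p = 1). Within each number the Aff3-/- array was the lower on both probes. The brighter probe's difference turned to +0.19 without Aff3+/- replicate 1 and to +0.15 without Aff3-/- replicate 2. The relative Ier5l had 0.60 and 0.90 on the Aff3-/- arrays against 0.52 and 0.80 on the Aff3+/- arrays (log2).

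**Figure D3:**
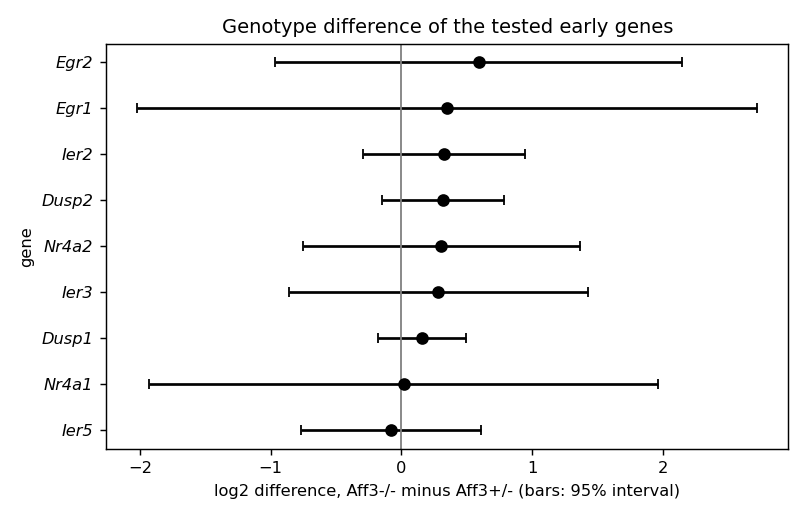
Fitted log2 difference of Aff3-/- minus Aff3+/- cells (x axis) for the 9 tested genes (rows), with bars for the 95% interval. Every interval spans 0, from the narrow one of Dusp1 (-0.18 to +0.50) to the wide one of Egr1 (-2.02 to +2.73).

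The residual SD of the fit, which measures how far arrays of a genotype lie apart, put several members among the most variable features. Egr1 (1.35 on the log2 scale) stood at percentile 99.9 of the 20636 features, Nr4a1 (1.104) at 99.8, Egr2 (0.88) at 99.4, Ier3 (0.64) at 98.1 and Nr4a2 (0.58) at 97.5. Ier5 and Ier2 followed at percentiles 89.1 and 85.5. Dusp2 (0.21) and Dusp1 (0.10) lay at 68.3 and 33.4. All 9 genes differed the same way between the arrays numbered 1 and 2 in both genotypes, as did 75.4% of all features, with 5 of the genes higher on number 1 and 4 on number 2.

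**Figure D4:**
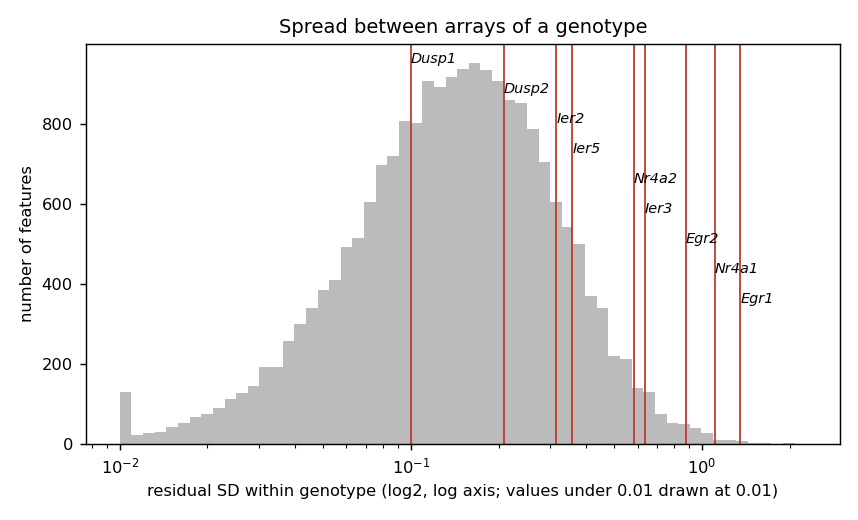
Histogram of the residual SD within genotype over the 20636 tested features (x axis, log2 units on a log axis, with y as number of features), with a red line for each tested early gene. Dusp1 lies left of the peak at 0.10, and Egr2, Nr4a1 and Egr1 lie in the right tail at 0.88, 1.104 and 1.35.

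Likeness was measured as the root mean square distance between centred log2 profiles over the 4 arrays. Egr1 lay 0.38 from Egr2 but 1.68 from Nr4a1, and Nr4a1 lay 0.43 from Ier3 and 0.44 from Nr4a2. Of 13402 other named genes above background on every array, the nearest to Egr1 were the receptor kinase gene Kit (0.29), the AP-1 gene Fosb (0.35), Chac1 (0.36), the pseudokinase gene Trib3 (0.37) and the fructose transporter gene Slc2a5 (0.37). Kit stood at -2.45 and -3.75 on the Aff3-/- arrays 1 and 2 against -2.53 and -4.00 on the Aff3+/- arrays. Averaged over the 9 genes, the opposite profiles cancelled, which left deviations of +0.12 and +0.13 on the Aff3-/- arrays and -0.04 and -0.21 on the Aff3+/- arrays. The genes nearest to that shallow mean profile were the ERK inhibitor gene Spry4 (0.004), Rxra (0.014), Ero1a (0.018), the AP-1 gene Fosl1 (0.022) and C77080 (0.024). A gene steady across arrays already lies near so shallow a profile, so these distances cannot be set against those to Egr1.

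The other genes of the pathway were counted in lists, some of which hold members of the set, and no gene of any list passed the adjusted threshold. The lists were chosen with earlier results of these data known. Over all features 45.7% were higher in Aff3-/- cells, with a median difference of -0.01. Of the 10 MAP kinase phosphatases 7 were higher and 3 lower in Aff3-/- cells, with a median of +0.11. Dusp6, the cytoplasmic ERK phosphatase, had 1.35 and 0.25 on the Aff3-/- arrays 1 and 2 against 1.47 and 0.51 on the Aff3+/- arrays (log2), so that both arrays numbered 1 were the higher ones, as for Egr1. Dusp4 had a difference of +0.10 ± 0.15 (SE) and Dusp5, whose signal was dim (-6.07 to -5.43), of +0.22 ± 0.22.

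Of the 11 AP-1 genes 10 were higher and 1 was lower, with a median of +0.15, and 3 had no overlap with Aff3-/- above (over all features, 45.7% were higher and 8.44% lay in this order without overlap). The 2 of smallest p were Fosl1 (+0.27 ± 0.12, SE) and Atf3 (+0.20 ± 0.14), each with an adjusted p of 1 in limma. The Fosl1 signal was dim (-6.83 to -6.49, log2), though well above background on every array. Within this family too the array order differed between genes. Fos, measured as the mean of several spots, had -4.66 and -3.07 on the Aff3-/- arrays 1 and 2 against -4.36 and -3.68 on the Aff3+/- arrays (log2), high on number 2 like Nr4a1. Fosb had -3.36 and -4.72 on the Aff3-/- arrays against -3.44 and -4.76 on the Aff3+/- arrays, high on number 1 like Egr1.

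Of SRF and its partners 6 of 8 listed symbols were tested, 1 higher and 5 lower, with a median of -0.06. The coactivator gene Mrtfb was +0.18 ± 0.11 (SE) and the ternary complex factor gene Elk4 -0.23 ± 0.18. CREB factors had a median of +0.04, with 4 of 6 higher (Atf1 +0.13 ± 0.12 and Crem +0.11 ± 0.15). ERK pathway genes had a median of +0.03, with 6 of 11 higher. Among them Mapk3, which encodes ERK1, was -0.18 ± 0.12, with both Aff3-/- arrays below both Aff3+/- arrays. Of 5 ERK feedback inhibitors 2 were higher and 3 lower, with Spry4 at +0.24 ± 0.12 and Spry1 at -0.24 ± 0.17. Both of these signals were dim (Spry4 -6.07 to -5.73 and Spry1 -6.72 to -6.22, log2).

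Other early genes had 20 of 26 higher in Aff3-/- cells (45.7% of all features), with a median of +0.08 (-0.01 over all features). Of them 6 had no overlap with Aff3-/- above while 1 had none with Aff3-/- below (8.44% and 11.1% of all features). The 2 of smallest p were the stress gene Gadd45g and the leucine zipper factor gene Nfil3. Gadd45g had 4.05 and 3.92 on the Aff3-/- arrays against 3.28 and 3.60 on the Aff3+/- arrays (log2), a difference of +0.55 ± 0.16 (SE), and Nfil3 had 4.29 and 4.05 against 3.68 and 3.79. Both had an adjusted p of 1 in limma.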

How the data were processed

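Spots were read by the authors with Agilent Feature Extraction (version 10.7.1.1 per the submitters' processing notes), and per the file headers the deposited processed and median signals are intensity values with no normalization between arrays. A deposited table holds log2 values for 25372 probes, with each probe centred on its median. Its direction follows the scanner values (correlation 0.9998 to 0.9999 across probes) and its per-array scaling is unknown. Column medians were -0.04 and 0.02 for Aff3-/- replicates 1 and 2, and 0.13 and -0.03 for Aff3+/- replicates 1 and 2.

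The 1377 control spots and outlier-flagged spots were left out. Processed signals were divided by the array's 75th percentile (1287.7 to 1316.9 in Aff3-/-, 1273.8 to 1350.9 in Aff3+/-) and put on the log2 scale, and spots of a probe were averaged. A probe entered the test (25115 did) if both arrays of 1 genotype or of the other had it well above background, by most of its spots. The brightest probe stood for a gene. By unversioned RefSeq accession 26581 probes were named through GRCm38.p6 tables and 12848 were not. The Aff3-/- minus Aff3+/- difference was estimated by limma 3.58.1 under R 4.3.3 (moderated linear model, 2 residual degrees of freedom, two-sided, Benjamini-Hochberg over all features, threshold 0.05). The code was also run on simulated data with independent noise on each array. Those data lack the gap between arrays numbered 1 and 2, so they do not check the test on these arrays. Precision is limited by the number of arrays.

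The members and lists were chosen with earlier results of these data known. The text names all 10 genes, their family relatives, the 2 genes of smallest p per list and the 5 genes nearest in profile; Fos, Fosb and those in the closing section were chosen after their values were seen. A gene that this rule holds is not reported here. Alternatives covered normexp (offset 50, on median signals, since no mean signal was given), quantile normalization, the deposited table, the filter, the probe rule, an intensity trend, the replicate number and leaving out each array. All arrays shared 1 slide, so no slide block was run.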

Additional observations from a re-analysis of the deposited data

How the results depend on the processing

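No feature passed the adjusted threshold over all 4 arrays under any alternative, and 0 to 18 did when 1 array was left out, none of them an early gene of the set. The smallest adjusted p was 0.62 to 1 over the alternatives with 4 arrays. Unadjusted p under 0.05 was reached by 811 features without the filter, 257 in the deposited table and 239 with an intensity trend, against 421. The median difference over the early genes was +0.018 in the deposited table, which holds 3 of the 9 tested genes (Egr1, Nr4a1 and Ier5) and where 0 of them had no overlap (20.5% of all features) and the median over all features was -0.059. Without 1 array the median was 0.085 to 0.193, and 5 to 6 genes had no overlap, where 46.5% to 73.1% of all features had none because a lone array overlaps less often. The differences then ranged from -0.76 to 1.464 for Egr1, -0.031 to 1.214 for Egr2, -0.986 to 1.023 for Nr4a1, -0.111 to 0.724 for Nr4a2, -0.186 to 0.752 for Ier3 and -0.352 to 0.193 for Ier5. Of 93 recomputed differences of single genes 81 kept their direction, and the 12 that turned all came from leaving out an array. Leaving out 1 array makes numbers 1 and 2 unequal between genotypes, so the gap between numbers enters the difference. Between same-numbered arrays (1, then 2) the log2 difference was +0.008 and +0.697 for Egr1 and +0.587 and +0.596 for Egr2. It was +0.297 and +0.316 for Nr4a2 and +0.324 and +0.241 for Ier3. For Ier5 it was -0.119 and -0.04, and for Nr4a1 -0.528 and +0.565. Why the numbers differ was not tested. The replicate numbers are shared between genotypes, but with 2 pairs they do not show that samples were paired: deviations from the genotype means correlated at 0.56 across features between same-numbered arrays, and 75.4% of features moved the same way between the numbers in both genotypes. With the replicate number as a block, 0 features passed, 1455 (7.05%) had an unadjusted p under 0.05, and 5 of the 9 genes did (Egr2, Nr4a2, Dusp2, Ier2 and Ier3), with adjusted p of 0.621 to 0.998 for the 9 in limma. Signal over background limits Egr3, which was not well above background on any array and was not tested.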

Other observations

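Some further early genes, picked after their values were seen, also differed more between arrays of a genotype than between genotypes. This was not counted over all features, so it does not set these genes apart. Gadd45a, a stress gene, had -0.07 and -1.45 on the Aff3-/- arrays 1 and 2 against -0.51 and -1.40 on the Aff3+/- arrays (log2 relative to the 75th percentile). Sgk1, a serum- and glucocorticoid-induced kinase gene, had -3.89 and -4.60 on the Aff3-/- arrays against -3.75 and -4.42 on the Aff3+/- arrays. Both were higher on the arrays numbered 1, as Egr1 was. Fosl2, an AP-1 gene, had -4.49 and -2.71 on the Aff3-/- arrays against -4.64 and -3.47 on the Aff3+/- arrays, and Myc had 1.71 and 2.29 against 1.67 and 2.17. These 2 were higher on the arrays numbered 2, as Nr4a1 was. By contrast Btg2, an antiproliferative p53 target, had 1.13 on each Aff3-/- array against 1.28 and 1.21 on the Aff3+/- arrays.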
